A study of Rattus norvegicus with 16 samples.

Results

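The 300 circRNAs described here had the highest share of their RNA in the m6A-immunoprecipitated fraction among the circRNAs that were measured in every rat of the study. They were selected on measured values. Of the 14145 circRNA probes on the array, 11023 were well above background and free of a non-uniformity flag in both fractions on all 8 arrays, and the 300 with the highest mean log2(IP/SUP) over the 8 rats were taken, which is 2.72% of those that could be chosen. The IP values, the SUP values and their ratio over the 8 rats therefore describe how the members were chosen, and no test against other circRNAs was made on them. The difference between the groups was not used, since each group gave 4 rats to the mean. A further 363 circRNAs were detected in IP on all 8 arrays but not in SUP on all 8, and could not be members.

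RNA came from the lumbar cord (L4 to L6) of adult male SD rats, 4 in the morphine tolerance group (MT group) and 4 in the normal saline group (NS group). Each MT rat received 10 μg of morphine hydrochloride in 10 μl through an intrathecal tube every morning and evening for 7 days, and each NS rat received 10 μl of saline through such a tube at the same times. Total RNA of each rat was divided with an anti-m6A antibody into the bound, modified fraction (IP) and the unbound fraction (SUP), RNase R was used on both to remove linear RNA, and IP (Cy5) and SUP (Cy3) were hybridized together to 1 array per rat. The dyes were not swapped, so IP and Cy5 cannot be told apart, and on the single slide the groups occupy separate rows, so position and group cannot be told apart either. The probes carry no gene names in the files used here, so members are named by probe ID, and the tissue could not be checked against its markers.

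N6-methyladenosine (m6A) is the most common internal methylation of messenger RNA. It is placed by a writer complex around METTL3 and METTL14, removed by FTO and ALKBH5, and bound by YTH domain readers. CircRNAs are closed loops made when a downstream splice donor is joined to an upstream acceptor, which leaves them without free ends and resistant to the exonuclease RNase R. They are abundant in neural tissue, and m6A on them has been linked to their export, decay and translation. Antibody enrichment reports whether a molecule carries at least 1 bound site, not how many sites it has or where they lie.

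The mean log2(IP/SUP) of the members was between 1.40 and 3.15, with a median of 1.57. As a share, for which the m6A level is IP as a percentage of IP plus SUP, this mean corresponds to between 72.6% and 89.9%. Over the 11023 circRNAs that could be chosen the median was −0.10, or 48.3%, and the lowest value was −7.11. The members form the end of a steep slope and not a separate group, since 162 of the 300 lay below a mean of 1.6 and only 27 lay above 2, of which 4 lay above 2.5. The values on both sides of the threshold were nearly equal. The last members inside were ASCRPR013455, ASCRPR005100 and ASCRPR001368, and the first circRNAs outside were ASCRPR011481, ASCRPR005804 and ASCRPR003681, and all 6 had a mean of 1.40. The SD of log2(IP/SUP) over the 8 rats was between 0.25 and 0.63 for these 6, so the rats do not separate the members near the threshold from those just outside it.

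**Figure D1:**
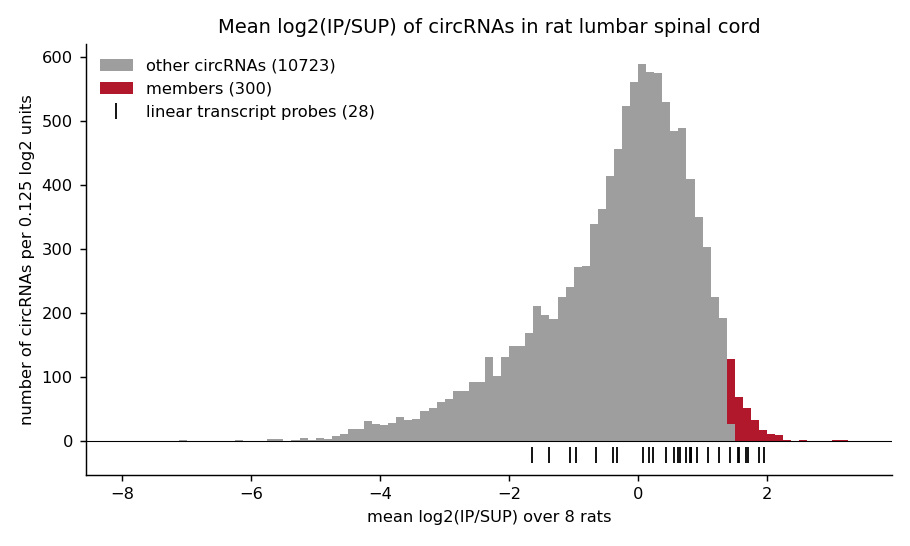
Histogram of the mean log2(IP/SUP) over 8 rats for the 11023 circRNAs that could be chosen, with the 300 members in red and the 28 detected linear transcript probes as ticks. The members are the right end of a single distribution, from 1.40 to 3.15, and 7 of the linear probes lie at or above the threshold.

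Linear transcript probes on the same arrays put some named genes beside the members. RNase R was used on both fractions to remove linear RNA, so these signals are what remained after it. Which RNA these probes detected was not tested. Of the 50 such probes, 28 were detected in both fractions on all arrays, and 7 of these (25%) had a mean at or above the members' threshold. The 5 of them that could be named were Fgf2 (a growth factor), Pdk3 (a kinase that inhibits pyruvate dehydrogenase), Map2 (a microtubule-associated protein of dendrites), Trim2 (a ubiquitin ligase) and Cyp2e1 (a cytochrome P450). The share from the mean ratio was 78.5% for Fgf2, 76.6% for Pdk3, 76.0% for Map2, 74.8% for Trim2 and 74.6% for Cyp2e1, all within the members' range. At the other end, Ldha, a subunit of lactate dehydrogenase, had 24.2% and Med16, a subunit of the Mediator complex, had 27.8%. Dlg4, the postsynaptic scaffold PSD-95, lay between them at 57.3%. Over the 28 linear probes the median was 61.8%, against 74.8% for the members and 47.6% for the other 10723 circRNAs. The spike-in probes, which are added RNA, had a median of 58.1% and a highest value of 76.1%, and 5 of the 83 detected lay at or above the threshold. A share of this size is therefore not limited to the circRNA probes on these arrays, and it is a position on the authors' scale rather than a count of modified molecules.

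The selection used both signals, and the members differed from the other circRNAs in SUP more than in IP, as a description of the spots chosen. Their median log2 IP was −4.17, the same as the −4.17 of the other circRNAs that could be chosen, while their median log2 SUP was −5.88 against −3.74. These values lie below 0 because the constants that the authors subtracted exceed most log2 intensities. Of the 300 members, 229 were in the lowest of 4 equal groups by SUP, 65 in the next, 6 in the third group and 0 in the highest, whereas 150 were below the median of IP. The sum of IP and SUP, taken here as expression, was below the median for 252 members, and 0 were above the 90th percentile. Signals of different probes do not give relative amounts of RNA, so these positions describe spot brightness and not abundance.

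**Figure D2:**
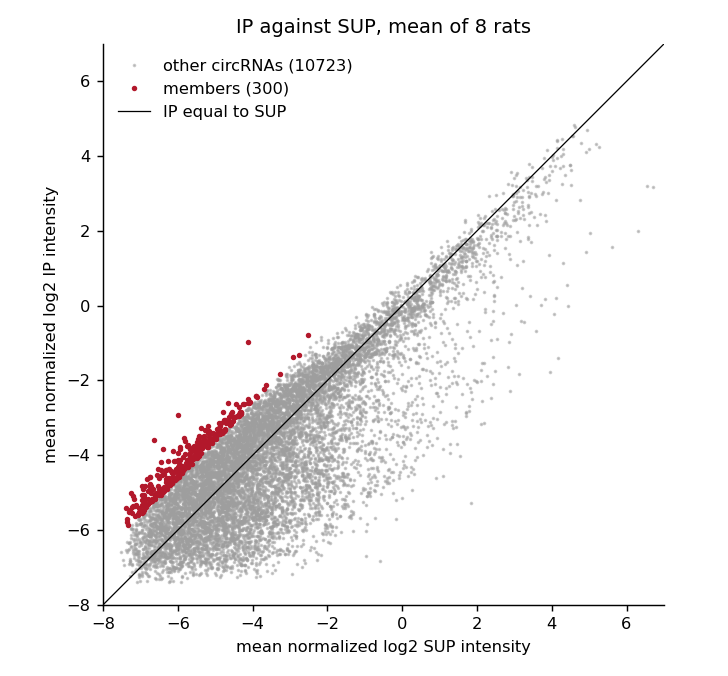
Mean normalized log2 IP intensity against mean normalized log2 SUP intensity over 8 rats, with the 300 members in red, the other 10723 circRNAs in grey and a line where IP equals SUP. The members fill the upper left edge of the cloud, with a median log2 SUP of −5.88 and a median log2 IP of −4.17.

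The members were dim in SUP. Their SUP spots had a median of 23.4 intensity units after background subtraction, averaged over the arrays, over a local background of 17.7, whereas the other circRNAs had a median of 98.7. In IP the members had 67.7 units and the others 72.8. The error that the scanner software gave for the processed signal was close to its minimum in both sets, with a median of 11.5% in SUP for the members and 10.1% for the others. None of the 4800 member spots was saturated, each circRNA probe has 1 spot, and the members were spread over the array, with a median row of 98 against 97 for the others. The SD of log2(IP/SUP) over the 8 rats had a median of 0.46 for the members and 0.38 for the others.

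The order of the circRNAs held under some choices and not under others. The 300 circRNAs ranked highest in the NS rats had a median log2(IP/SUP) of 1.51 in the MT rats. For all circRNAs that could be chosen it was −0.22. The MT rats had no part in that ranking, but the filter for detection used them. Of the 300, 266 were above the 90th percentile there and 188 in the top 300. In the other direction, the 300 ranked highest in the MT rats had a median of 1.53 in the NS rats against 0.02. Of these, 299 were above the 90th percentile and 188 in the top 300. All arrays share the probes and the dyes, so these values are a description and no separate support for the order. Ranking on the 4 NS rats alone kept 233 of the members in the top 300, and ranking on the 4 MT rats alone kept 254. Fewer were kept under some changes of background correction or dye normalization. With the signal before dye normalization, 110 of the members were in the top 300, and with normexp background correction of the median spot signal, 8 were. That setting changed the spot statistic and the background model together and added an offset of 50 units to every signal, and which of these moved the order was not tested. Under it the members' median share was 51.5%, against 42.1% for all that could be chosen. With loess and Aquantile normalization 280 members stayed, and with the named spike-in probes 300 did, because a constant per array does not change the order.

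The 12 members with the highest mean fell into different patterns across the rats. In ASCRPR013249, the highest of all, the m6A level of MT replicates 1, 2, 3 and 4 was 83.9%, 93.4%, 88.0% and 66.9%, and that of NS replicates 1, 2, 3 and 4 was 93.1%, 93.4%, 95.4% and 90.2%. In ASCRPR009329 it was 86.9%, 93.4%, 91.7% and 72.4% in the MT group and 91.5%, 94.5%, 86.7% and 88.2% in the NS group. In both, MT replicate 4 was the lowest of the 8 rats, below every other rat by over 10 percentage points.

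The same held for ASCRPR012492, with 88.7%, 89.9%, 90.8% and 57.5% in the MT group and 90.9%, 92.5%, 93.7% and 93.0% in the NS group. ASCRPR004583 had 89.6%, 89.3%, 88.6% and 60.3% in the MT group, against 90.0%, 84.0%, 87.7% and 84.6% in the NS group. ASCRPR003261 had 80.6%, 81.9%, 83.7% and 48.2% in the MT group and 89.0%, 91.8%, 88.4% and 84.9% in the NS group. In this last circRNA MT replicate 4 had slightly more SUP than IP, while the other 3 MT rats were also below all 4 NS rats.

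ASCRPR011854 showed the same low value, at 82.6%, 87.0%, 85.0% and 62.3% in the MT group and 85.7%, 85.9%, 82.0% and 83.1% in the NS group. ASCRPR011663 did not, with 83.9%, 79.7%, 85.3% and 77.3% in the MT group and 85.0%, 89.6%, 73.2% and 83.0% in the NS group, where NS replicate 3 was the lowest rat. ASCRPR002268 was the steadiest of the 12, at 82.3% ± 2.3 (SD, n = 8), with a range from 79.7% to 85.8%. The groups overlapped in all 3.

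The remaining 4 of the 12 had levels between 70.6% and 90.2% in single rats. ASCRPR010026 had 80.4%, 80.6%, 87.5% and 80.7% in the MT group and 85.4%, 83.5%, 75.8% and 80.6% in the NS group. ASCRPR005651 had 85.6%, 71.5%, 85.9% and 86.7% in the MT group and 82.2%, 86.8%, 75.9% and 76.6% in the NS group. In ASCRPR001891 and ASCRPR011148, MT replicate 2 was the lowest rat at 71.3% and 70.6%, and NS replicate 3 the next at 73.4% and 72.7%. MT replicate 4, the low rat of the circRNAs at the head of the list, was the highest rat in ASCRPR001891, at 90.2%.

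**Figure D3:**
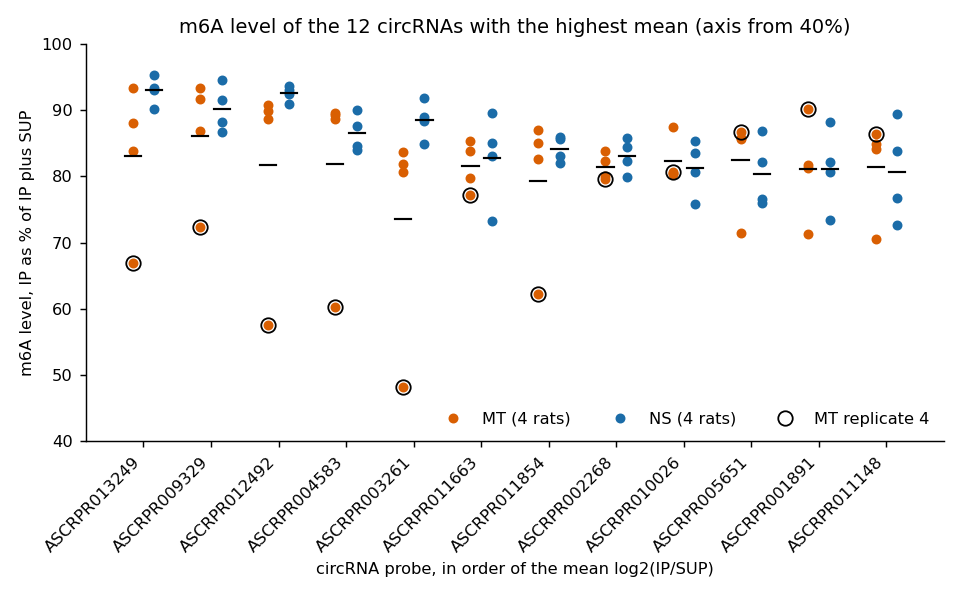
m6A level (IP as a percentage of IP plus SUP, axis from 40%) of the 12 circRNAs with the highest mean, with 1 point per rat, bars for the group means and a ring around MT replicate 4. That rat lies far below the other 7 in 6 of the 12, down to 48.2% in ASCRPR003261, and is the highest rat in ASCRPR001891, at 90.2%.

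Over the members, MT replicate 4 had a log2(IP/SUP) at least 1 below the median of the other 7 rats in 24, after each array was centred on its own median. The other rats had between 0 and 11 such members. The lower value came from the IP side. In these 24, the IP signal of MT replicate 4 differed from the median of the other rats by −3.77 to −0.86, with a median of −1.93, whereas the SUP signal differed by −0.80 to 0.79, with a median of −0.18. In 22 of the 24 the IP signal was lower by at least 1 and in 0 was the SUP signal higher by at least 1. The same rat was at least 1 above the others in 12 members. Among the other circRNAs that could be chosen, it was at least 1 below in 6.95% and at least 1 above in 1.35%. MT replicate 4 also had the lowest share of circRNA probes well above background in IP, 83.7%, against 89.1% to 92.8% in the other rats, and the part of this in the low values was not tested.

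The members with the widest and narrowest spread over the rats frame this pattern. ASCRPR013775 had the largest SD of log2(IP/SUP), 1.35, with levels of 67.4%, 73.6%, 71.6% and 34.3% in the MT group and 67.4%, 74.2%, 93.9% and 81.8% in the NS group. ASCRPR006774 had an SD of 1.34, with 59.8%, 82.3%, 77.5% and 33.1% in the MT group and 74.7%, 81.5%, 92.4% and 76.5% in the NS group. In both, MT replicate 4 was the lowest and NS replicate 3 the highest, and the log2 SUP signal of NS replicate 3, at −7.16 and −7.33, was the lowest of the 8 rats. At the other end, ASCRPR001873 was between 69.8% and 76.6% in all 8 rats (SD of the log2 ratio 0.21) and ASCRPR008274 between 68.9% and 78.6% (0.22).

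Rats also differed across the list as a whole. The members' median level, in the order of the replicate numbers, was 76.0%, 67.6%, 77.4% and 79.2% for the MT rats, and 77.6%, 80.7%, 68.4% and 74.2% for the NS rats. MT replicate 2 was the lowest rat in 138 members and NS replicate 3 in 113, and NS replicate 2 was the highest in 136 and MT replicate 4 in 93. Among the other circRNAs MT replicate 2 was the lowest in 44.3% and NS replicate 3 in 18.6%, and NS replicate 2 was the highest in 26.7% and MT replicate 4 in 11.8%. The medians of the other circRNAs did not follow the same order. They were 43.2%, 40.8%, 49.6% and 47.8% in the MT group and 48.6%, 51.5%, 46.4% and 51.7% in the NS group, so that MT replicate 2 was lowest in both sets, whereas NS replicate 4 was highest among the others and below most rats among the members. In 293 of the 300 members IP exceeded SUP in every rat, and in the other 7 the exception was MT replicate 4. Among the other circRNAs IP exceeded SUP in every rat in 19.6% and lay below it in every rat in 36.4%. The 300 highest circRNAs of a single rat held between 131 (NS replicate 3) and 224 (NS replicate 2) of the members.

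**Figure D4:**
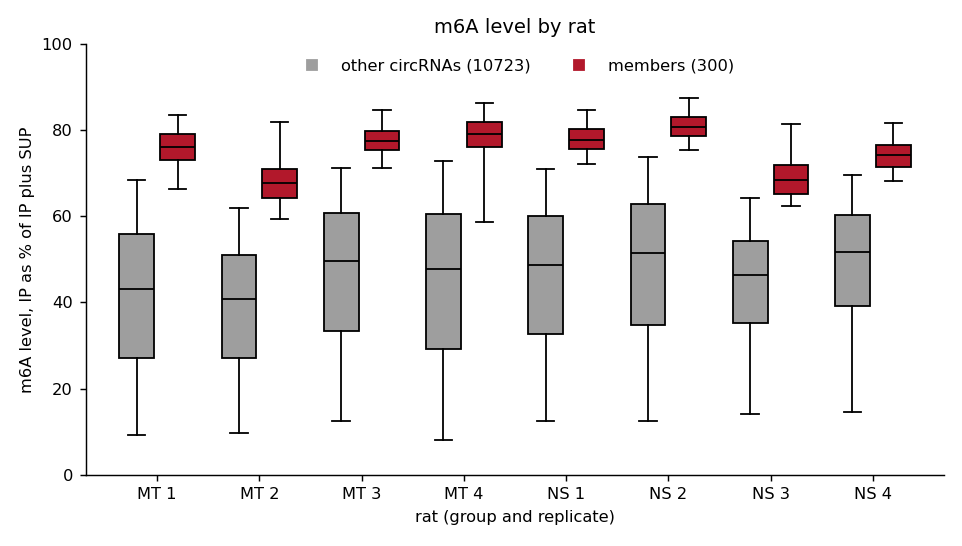
m6A level (IP as a percentage of IP plus SUP) in each rat for the 300 members (red) and the other 10723 circRNAs (grey), with boxes from the lower to the upper quartile, a line at the median and whiskers from the 5th to the 95th percentile. The members' medians run from 67.6% in MT replicate 2 to 80.7% in NS replicate 2, and those of the others from 40.8% to 51.7%.

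The comparison of the MT group with the NS group asked whether the m6A level of these circRNAs changed with morphine tolerance. The median level of the members was 75.05% ± 5.12 (SD, n = 4) in the MT rats and 75.21% ± 5.26 (SD, n = 4) in the NS rats. In the other circRNAs it was 45.4% ± 4.1 and 49.6% ± 2.6. On the log2(IP/SUP) scale, the members' median difference, MT minus NS, was −0.01, against −0.25 over all 12669 circRNAs tested, and 155 of the 300 members were lower in the MT group, against 78.1% of all tested. Setting the 75th percentiles equal moved the median of all circRNAs tested from −0.25 to 0.02 and that of the members from −0.01 to 0.26. The members' median lay above that of all circRNAs tested by 0.24 under both scalings, and by 0.10 to 0.34 over the other settings and the removal of each rat in turn. These values have no test, since the members share their arrays, and with the deposited constants the members' difference was smaller than the SD of 0.39 between rats of a group. With loess and Aquantile normalization the members' median difference was 0.34, against 0.09 for all circRNAs tested.

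Single circRNAs were tested with limma over the 12669 circRNAs detected in both fractions on at least 4 of the 8 arrays, among which were all members, and the criterion took the thresholds of the study, a fold change of at least 1.5 with an unadjusted P under 0.05. For the level the fold change was that of IP/SUP, because a percentage near its ceiling has little room to rise. With the study's percentage in its place, 0 members were lowered, against 4.75% of all circRNAs. The m6A level was lowered in the MT group past the criterion in 9 of the 300 members (3.0%), against 13.3% of all circRNAs tested, and raised in 0, against 0.0947%. Of the members 9 had an unadjusted P under 0.05, against 14.8% of all. No member or other circRNA had an adjusted P under 0.05, and the smallest adjusted P of a member was 0.247. All 4 MT rats lay below all 4 NS rats in 4 members (1.3%), against 7.20% of all, and all 4 MT rats lay above in 0, against 0.103%. The share of members called lowered was thus below that of the circRNAs on the arrays in general, and this difference in shares was not tested. The direction of the calls depended on the scaling of the arrays. With both channels of all arrays scaled to a common 75th percentile, 0 members were lowered and 4 raised, against 3.02% and 1.44% of all circRNAs, and with loess and Aquantile normalization 0 were lowered and 12 raised, against 2.30% and 2.74%.

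Of the 9 lowered members, ASCRPR013249, ASCRPR012492, ASCRPR003261 and ASCRPR013018 are among the 13 with the highest mean. In ASCRPR003261 the log2(IP/SUP) was 1.62 ± 1.16 (SD, n = 4) over the MT rats and 2.98 ± 0.41 (SD, n = 4) over the NS rats, a difference of −1.36 ± 0.48 (SE) with a limma adjusted P of 0.259, and the groups did not overlap. In ASCRPR012492 it was 2.46 ± 1.36 against 3.64 ± 0.24 (SD, n = 4 each), a difference of −1.18 ± 0.53 with a limma adjusted P of 0.328, and again the groups did not overlap. Both SDs of the MT group come mostly from replicate 4.

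Without MT replicate 4 the difference of ASCRPR003261 was −0.78 and still past the criterion, and that of ASCRPR012492 was −0.50 and no longer so. The call of ASCRPR012492 was also lost without NS replicate 2, 3 or 4, and without the filter for detection. With all rats, both calls and that of ASCRPR007839 were lost without limma's moderation of the variance. They were also lost with the 75th percentile, loess and Aquantile, the named spike-in probes, the signal before dye normalization and normexp. The difference of ASCRPR003261 was −1.36 without the moderation, −1.34 with the named spike-in probes and −1.43 before dye normalization. It was −1.09 with the 75th percentile, −0.97 with loess and Aquantile and −0.44 with normexp. Except under normexp, the calls of ASCRPR003261 and ASCRPR012492 were lost on the unadjusted P and not on the fold change. ASCRPR007839 was at 68.9%, 77.8%, 78.9% and 51.8% in the MT group and 79.4%, 79.0%, 83.1% and 81.5% in the NS group, a log2 difference of −0.83 ± 0.36 (SE) with a limma adjusted P of 0.314. It was −0.45 without MT replicate 4 and not past the criterion, although the remaining MT rats still lay below the lowest NS rat. The call of ASCRPR007839 was also lost without MT replicate 1 and without NS replicate 1, 3 or 4.

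The m6A quantity, which is the normalized IP signal, was lowered past the criterion in 1 member, against 0.679% of all circRNAs, and raised in 0, against 0.884%. Of the members 4 had an unadjusted P under 0.05, against 5.87% of all. All 4 MT rats lay below all 4 NS rats in 3 members (1.0%), against 2.06% of all, and above in 0, against 0.339%. The called member was ASCRPR009980, in which log2 IP was −4.83, −5.40, −4.96 and −4.08 in the MT rats and −4.0001, −3.82, −4.33 and −4.11 in the NS rats. MT replicate 4 lay among the NS rats and the other 3 MT rats below all of them. The difference was −0.75 ± 0.26 (SE) with a limma adjusted P of 0.676. In ASCRPR006605 log2 IP was −5.05, −5.44, −5.05 and −5.18 in the MT rats and −4.61, −4.61, −4.95 and −4.71 in the NS rats. The groups did not overlap, but the difference of −0.46 ± 0.17 (SE) was under 1.5-fold, with a limma adjusted P of 0.676. The members' median difference in IP was −0.18, against −0.15 for all circRNAs tested. Without MT replicate 4 the medians were −0.26 and −0.16, so the distance between them depended on that rat.

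The IP counts depended on single rats. Without NS replicate 3, 6 members were lowered, against 1.90% of all, and without MT replicate 2, 0 were, against 0.332%. MT replicate 4 moved them most. Without it, 6 members were raised in IP and 11 lowered, against 6.05% and 3.76% of all circRNAs, and the adjusted P was under 0.05 in 2 of the members and in 133 of all 12669. These were ASCRPR009980, with a difference of −1.001 and a limma adjusted P of 0.027, and ASCRPR009998, with 1.24 and 0.038, the second of which was named after its values were seen. All 6 of the raised are among the 24 members in which that rat was low, so the removal of the rat and the direction of the call are not independent.

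In SUP the members' median difference lay further from that of all circRNAs than in IP, and the fractions were not tested against each other. SUP was raised in the MT group past the criterion in 5 members (1.7%), against 13.5% of all circRNAs tested, and lowered in 2 (0.67%), against 0.505%. Of the members 12 had an unadjusted P under 0.05, against 21.0% of all, and the smallest adjusted P of a member was 0.156. The groups did not overlap with the MT rats higher in 1 member, against 8.52%, and with the MT rats lower in 3, against 2.20%. The members' median difference in SUP was −0.15, against 0.11 over all circRNAs tested, and 213 of the 300 members were lower in the MT group, against 41.5% of all. With the arrays scaled on the named spike-in probes these medians were 0.00 and 0.26, and over the settings tried the members' median in SUP less that of all circRNAs tested was between −0.32 and −0.10. SUP was lowered in 15 members with the 75th percentile and in 39 with loess and Aquantile normalization, against 2.82% and 4.91% of all. Without NS replicate 2, 13 members were lowered in SUP, against 1.14% of all, and without NS replicate 1, 10 were, against 1.55%. Without MT replicate 4, 11 members (3.7%) were raised, against 18.9% of all. In bulk tissue, a change in the number of cells that hold a circRNA and a change in the RNA per cell cannot be told apart.

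**Figure D5:**
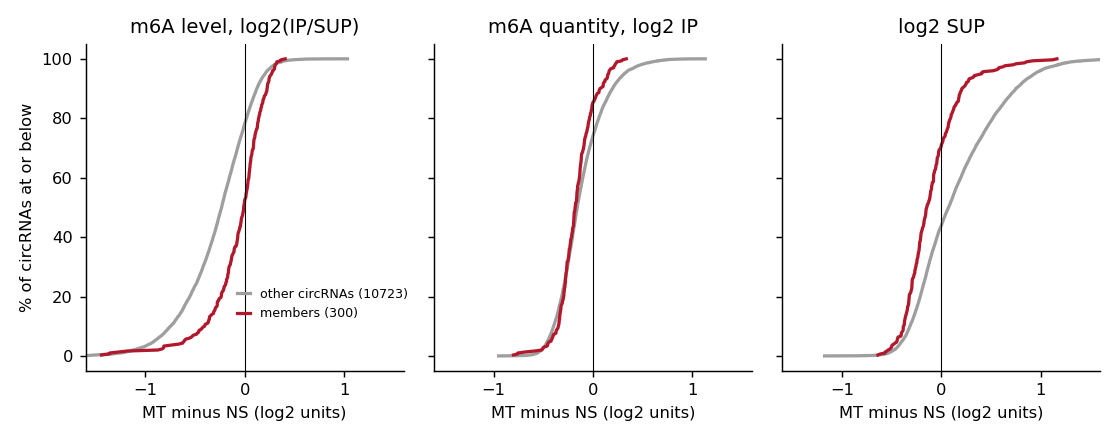
Cumulative percentage of circRNAs by the difference MT minus NS, in log2 units, of the m6A level, of IP and of SUP, for the 300 members (red) and the other 10723 circRNAs (grey). The medians are close for IP (−0.18 and −0.16) and lie apart for SUP (−0.15 and 0.07) and for the level (−0.01 and −0.23). In IP, 256 of the 300 members were lower in the MT group, against 74.1% of the others.

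The member with the largest SUP change and separate groups was ASCRPR013018. Its log2 SUP was −6.09, −5.99, −6.10 and −6.93 in the MT rats and −6.99, −7.25, −7.48 and −7.05 in the NS rats. Every MT rat lay above every NS rat, with a difference of 0.92 ± 0.23 (SE) and a limma adjusted P of 0.156. Its log2 IP differed by 0.10 ± 0.38 (SE), so that its m6A level was 76.8% ± 6.0 (SD, n = 4) for MT and 85.6% ± 2.0 (SD, n = 4) for NS. In ASCRPR010438 log2 SUP was −7.73, −7.26, −7.54 and −7.30 in the MT rats and −7.20, −7.08, −6.49 and −6.59 in the NS rats. Here every MT rat lay below every NS rat, with a difference of −0.61 ± 0.21 (SE) and a limma adjusted P of 0.182, and the m6A level was 79.5% ± 5.5 (SD, n = 4) for MT against 75.1% ± 6.2 (SD, n = 4) for NS.

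Signal strength is given beside these differences. Over the circRNAs that could be chosen, cut into 4 equal groups by their mean SUP, the share with a lowered level was 9.98% in the dimmest group, 13.9% in the next, 13.0% in the third group and 11.3% in the brightest. The members' median difference in level was −0.04 in the dimmest group, where 229 of them lay, against −0.23 for all circRNAs of that group, and 0.09 in the next, where 65 lay, against −0.24. For SUP the share raised was 7.22%, 12.8%, 14.3% and 12.7% from the dimmest group to the brightest, and the members' median difference was −0.11 against 0.11 in the first and −0.25 against 0.15 in the second. The part of signal strength in the members' differences was not otherwise tested.

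Expression, taken as the sum of IP and SUP, passed the criterion in 0 members in either direction, against 7.81% of all circRNAs raised and 0.166% lowered. An unadjusted P under 0.05 was found in 16 members, against 18.5% of all, with a smallest adjusted P of 0.201. Of these 16, 15 were lower in the MT group, against 33.5% of all circRNAs with such a P. All 4 MT rats lay below all 4 NS rats in 6 members (2.0%), against 3.44% of all, and above in 0, against 5.46%. The smallest P was that of ASCRPR009980, with −4.23 ± 0.29 (SD, n = 4) in the MT rats and −3.67 ± 0.07 (SD, n = 4) in the NS rats on the log2 scale. The groups did not overlap, and the difference was −0.56 ± 0.16 (SE) with a limma adjusted P of 0.201. In ASCRPR006605 expression was −4.80 ± 0.13 (SD, n = 4) against −4.37 ± 0.07 (SD, n = 4), also without overlap, with a difference of −0.43 ± 0.12 (SE) and a limma adjusted P of 0.201. Both differences fell short of 1.5-fold. Over the members, the median difference was −0.17, against −0.01 over all circRNAs tested. The members' median itself depended on the scaling. With the named spike-in probes the medians were −0.01 and 0.16, and with the signal before dye normalization −0.01 and 0.18. With normexp they were 0.03 and 0.10. Over the settings tried and each rat left out, the members' median less that of all circRNAs tested was between −0.24 and −0.08. Without MT replicate 4, 9 members (3.0%) were raised and 2 (0.67%) lowered past the criterion, against 14.0% and 0.434% of all, and no member had an adjusted P under 0.05.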

How the data were processed

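IP (Cy5) and SUP (Cy3) RNA of 4 MT and 4 NS rats was hybridized to 1 Agilent array per rat. Per the submitters' notes, Agilent Feature Extraction 11.0.1.1 read the arrays. The authors deposited scanner output with the intensity of each spot, background-subtracted and dye-normalized by that software, and a table of log2 values for 12893 circRNAs. The authors' deposited log2 values were found to equal the log2 processed intensity less 1 constant per array and channel, within 9.63e-09, and these values were used for all 14145 circRNA probes.

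Members and lists were chosen with earlier results of these data known. Level (log2 IP/SUP), IP, SUP and their sum were fitted by limma 3.58.1 (R 4.3.3), with tables made in Python 3.11.15 and pandas 2.3.3, over the 12669 circRNAs detected in each channel on at least 4 of the 8 arrays, with Benjamini-Hochberg adjustment. The 8 rats are separate animals. With 4 per group, their number limits precision.

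The circRNAs named are the 12 highest, the 3 on each side of the threshold, for each measure those past the criterion with separate groups (up to 3 in each direction, or the 2 smallest P where there were none), and the 2 with the largest and the 2 with the smallest SD. Alternatives covered normalization, background correction, the filter, the test, the replicate block, the list size and each rat left out. Host gene lists and markers of cell types could not be applied without gene names. The symbols of 30 linear probes came from RefSeq accessions.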

Additional observations from a re-analysis of the deposited data

Results flagged for a closer look

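In a group of 4 rats, a rat was set apart when its gap to the nearest other rat was above Dixon's critical value for the group's range. Of 56 such groups of named circRNAs and of the members' medians, 5 had such a rat, and chance flags about 1 in 20 groups. These groups share the same 8 rats and hold circRNAs named for their mean, their SD or a call, so that rate does not apply to them and the values are a description. In MT replicate 4 the m6A level was 57.5% in ASCRPR012492, where the other MT rats were between 88.7% and 90.8%. It was 60.3% in ASCRPR004583, against 88.6% to 89.6%, and 48.2% in ASCRPR003261, against 80.6% to 83.7%. In ASCRPR005651 MT replicate 2 had 71.5%, against 85.6% to 86.7%, and in ASCRPR010026 MT replicate 3 was the highest at 87.5%, against 80.4% to 80.7%. Over all 300 members the MT group had such a rat in 20 (6.67%) and the NS group in 5 (1.67%), against 5.88% and 4.28% of the other circRNAs. In the MT group that rat was replicate 2 in 12 members, replicate 4 in 7 and replicate 3 in 1.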

How the results depend on the processing

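Shares of all circRNAs are in brackets. For the level, 9 members were lowered past the criterion (13.3%). This fell to 0 with the 75th percentile (3.02%), loess and Aquantile (2.30%), normexp (2.23%) or the level in percent (4.75%). It fell to 2 with Student's test (7.78%), 3 with the named spike-in probes (8.57%) and 4 with the signal before dye normalization (7.08%). Members raised went from 0 (0.0947%) to 4 with the 75th percentile (1.44%) and 12 with loess (2.74%). In IP, members lowered went from 1 (0.679%) to 2 with detection on all 8 arrays (0.463%) and 0 with normexp (0%). In SUP, members raised went from 5 (13.5%) to 2 with the 75th percentile (7.85%) or loess (6.58%), 1 with Student's test (7.61%) and 0 with normexp (5.87%). Members lowered in SUP went from 2 (0.505%) to 15 with the 75th percentile (2.82%), 39 with loess (4.91%) and 1 with Student's test (0.308%). They went to 0 with the named spike-in probes (0.126%), normexp (0.00789%) or the signal before dye normalization (0.0710%). Expression had 1 member lowered with loess (0.410%). Of the 300 members, 8 stayed in the top 300 with normexp and 110 before dye normalization.

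Leaving out each rat in turn gave 6 to 12 members lowered in level (7.83% to 17.3% of all circRNAs) and 0 to 1 raised (0.0316% to 0.245%). In IP, 0 to 6 were raised (0.339% to 6.05%) and 0 to 11 lowered (0.332% to 3.76%). In SUP, 1 to 11 were raised (6.94% to 21.6%) and 0 to 13 lowered (0.245% to 1.55%). In expression, 0 to 9 were raised (3.54% to 14%) and 0 to 2 lowered (0.103% to 0.458%). The median difference in level was between −0.18 and 0.18, and 260 to 289 members were kept. Of the 9 reported as lowered in level, between 4 and 9 were still called. Without MT replicate 4, 4 of them were shared, 5 were lost and 7 others were called, and without NS replicate 3, 4 were shared, 5 lost and 4 others called. The largest shifts in IP and expression came without MT replicate 4. Rats of the 2 groups share only replicate numbers. The deviations of rats with the same number correlated at 0.34, −0.35, 0.22 and 0.09 in level and at 0.45, −0.02, −0.01 and 0.43 in IP. In SUP they correlated at 0.61, −0.21, −0.11 and 0.56, and in expression at 0.63, 0.11, −0.09 and 0.60. Those of rats with different numbers correlated at −0.38 to 0.42 in level, −0.45 to 0.34 in IP, −0.65 to 0.56 in SUP and −0.66 to 0.49 in expression. With the replicate block, 11 members were lowered in level (16.6% of all circRNAs), 2 in IP (0.987%) and 9 raised in SUP (19.2%). In SUP the adjusted P was then under 0.05 in 5 of the 9 and in 1 of the 2 lowered, and in 2009 of all 12669 circRNAs. For the level it was under 0.05 in 114 of all and for expression in 308, with 0 members in either, against 0 of all without the block. In the list of 150 circRNAs 4.0% were lowered in level and 2.67% raised in SUP, and in that of 600, 2.17% and 1.33%. For the settings that changed a count, the cause was not tested. The members' SUP spots had a median of 23.4 units over a local background of 17.7, and the bearing of this on the ratios was not tested.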
